A study of Homo sapiens with 6 samples.

Results

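The genes described here code for the collagens, the laminins, the secreted and membrane proteases that cut the extracellular matrix, and the inhibitors of those proteases, in K562 cells with and without knockdown of PCBP1. They were taken by name from GENCODE release 44 as every protein-coding gene of 7 families: collagen chains (COL, 44 genes), laminin chains (LAMA, LAMB and LAMC, 12), matrix metallopeptidases (MMP, 24), ADAM metallopeptidases (20), ADAMTS metallopeptidases (19), ADAMTS-like proteins (5) and tissue inhibitors of metallopeptidases (TIMP, 4). This gave 128 genes of the 19991 protein-coding genes with a transcript in the files. The name rule also takes in MMP24OS, which lies on the opposite strand to MMP24 and is not a metallopeptidase gene. Without it, 55 of the genes could be tested in place of 56, and the number that passed stayed at 21.

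The extracellular matrix is the protein mesh that cells secrete and attach to. Fibrillar collagens such as types I, III and V give it tensile strength, network collagens such as type IV and the proteoglycan types XV and XVIII belong to basement membranes, and laminins, each assembled from an alpha, a beta and a gamma chain, are the basement membrane proteins that integrins on the cell surface bind. Zinc-dependent proteases remodel it: MMPs cut matrix proteins, ADAMs mostly release the outer parts of membrane proteins, ADAMTS enzymes cut procollagens and proteoglycans, ADAMTS-like proteins resemble them but lack the protease domain, and TIMPs block the active site of these enzymes. In bone marrow, where erythroid cells mature, laminins and other matrix proteins line the niche, and blood cells shed and bind matrix molecules themselves.

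K562 is an established human erythroleukemia line. Cells of the shPCBP1 group received a lentivirus with a pLKO.1 plasmid that carries a short hairpin RNA against PCBP1, an iron chaperone that also binds RNA rich in cytosine, and cells of the shCtrl group received the same vector with a hairpin against luciferase. Both groups were selected in puromycin for 4 days, both carry the vector and its resistance gene, and each rests on 1 hairpin. There were 3 poly-A RNA libraries in each group. Nothing in the labels says that the libraries of a group came from separate cultures, so the p-values measure the spread between these libraries, which may be technical.

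Depth was between 83033656 and 140522444 estimated counts in shCtrl and between 67066747 and 85121124 in shPCBP1, so it differed between the groups. The targeted gene was checked first: PCBP1 had 40566, 38409 and 37799 (shCtrl) against 6625, 7277 and 7221 (shPCBP1) (DESeq2 normalized counts), 18.1% of the shCtrl level (log2 fold change -2.47, SE 0.0439). Of 11 erythroid marker genes 11 had an adjusted p, and their summed level was between 29012 and 34843 TPM in shCtrl and between 33207 and 34639 TPM in shPCBP1, so the libraries carry the erythroid label in both groups. In DESeq2, 4 of the 11 passed an adjusted p under 0.05, 3 higher and 1 lower in shPCBP1 (36.4%, against 31.2% of all genes tested). TPM is a transcript abundance corrected for transcript length and scaled to the same total in each library, and it is the scale used here to compare one gene with another.

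Most of the matrix genes were close to silent. Of the 128 genes, 10 had no count in any library and another 17 stayed below a summed count of 10, so 27 did not enter the test, and a further 45 received no adjusted p because their mean normalized count was too low. The 56 that remained are the genes for which a change could be tested. Only 34 genes averaged at least 1 TPM and 15 at least 10 TPM. Among those 15 were 3 laminins, 4 ADAMs and 2 genes each of the collagens, the MMPs and the ADAMTSs. TIMP1 was the most abundant with a mean of 385 TPM, followed by ADAMTSL4 with 96.7 TPM and LAMA5 with 53.9 TPM. Summed over all members, the level was between 880.5 and 956 TPM in shCtrl and between 806 and 834 TPM in shPCBP1. Coding transcripts alone gave 649 to 684 TPM in shCtrl and 617 to 640 TPM in shPCBP1. Much of the gap lay in ADAMTSL4 and LAMA5, the latter with 71.1, 77.7 and 58.6 (shCtrl) against 36.3, 34.5 and 45.0 (shPCBP1) TPM. TIMP1 had 394, 386 and 382 (shCtrl) against 379, 393 and 379 (shPCBP1) TPM, with overlapping groups. The sum is therefore not a change of the members in general.

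**Figure D1:**
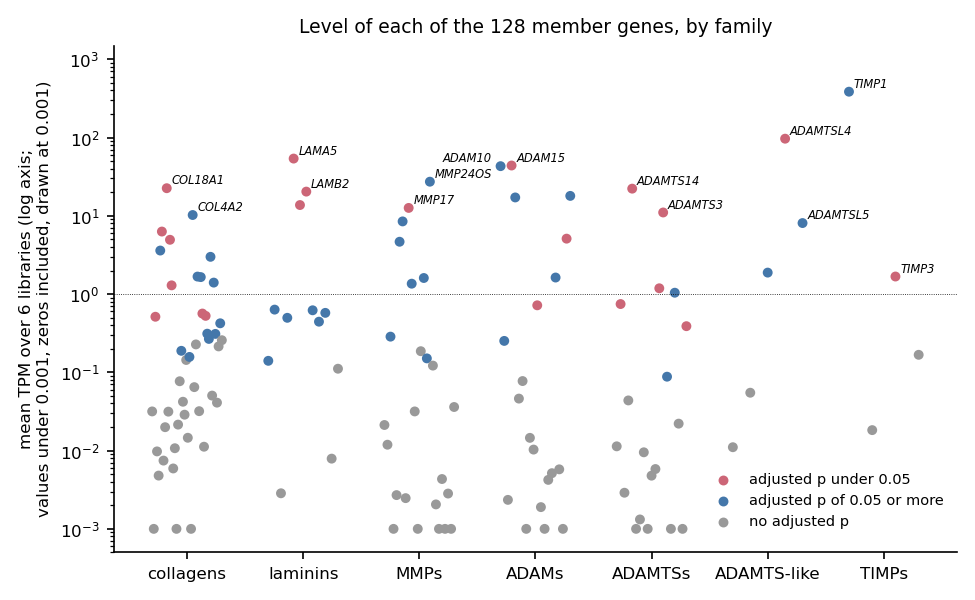
Mean TPM over the 6 libraries on a log axis for each of the 128 genes, in 7 columns by family, with the 2 most abundant genes of a family named. Genes at or below 0.001 TPM are drawn at 0.001, red marks an adjusted p under 0.05, blue a higher adjusted p and grey no adjusted p, and every grey point lies below 1 TPM.

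The silence was uneven even between neighbouring genes. COL4A1 and COL4A2, which code for the 2 most widespread chains of type IV collagen, lie head to head on chromosome 13, and COL4A1 was listed at 0 in all 6 libraries while COL4A2 had a summed count of 5078. The coding transcripts of COL4A2 averaged 0.998 TPM of the 10.2 TPM of the gene, and 62.8% of its TPM lay in transcripts annotated with a retained intron. No library lay near that coding mean. The coding transcripts had 1.75, 1.84 and 0.0115 (shCtrl) against 0.0403, 0.00486 and 2.34 (shPCBP1) TPM. On chromosome 11, where 9 MMP genes form a cluster, the highest summed count was 18, for MMP1, followed by 12 for MMP10, 4 for MMP13 and 1 for MMP7, and MMP20, MMP27, MMP8, MMP3 and MMP12 had none.

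In shPCBP1, LAMA5, ADAMTSL4, ADAMTS14, MMP17, TIMP3, COL6A1, ADAM8 and COL1A2 were lower, and COL15A1, ADAMTS3 and ADAMTS20 were higher. These genes kept an adjusted p under 0.05 under all 15 other settings of the test. The laminin genes LAMB1 and LAMB2 were also lower but lost their call under 4 and 1 of those settings. Of the 56 genes tested, 21 passed an adjusted p under 0.05 (37.5%), 7 higher and 14 lower in shPCBP1. Of all 17095 genes tested, 31.2% passed, with 17.7% higher and 13.5% lower, and of the 12819 protein-coding genes among them 37.0% passed. The share of members that changed was therefore close to that of protein-coding genes in general, while the split leaned the other way, with 25% of the tested members lower and 12.5% higher. The median log2 fold change was -0.07 over the members tested and 0.00 over all genes tested. The study picked matrix and metallopeptidase terms out of these same samples, so these counts are not independent evidence of a direction.

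Few of the changes were large. When the absolute log2 fold change also had to exceed 1 and the mean normalized count 10, 2 of the 56 members were called, COL6A1 and ADAMTS10, both lower (3.57%, where 1.37% of all genes tested were called). The groups did not overlap for 28 of the 56 members, 10 higher and 18 lower, a share of 50% against 44.2% of all genes tested and 49.4% of the protein-coding genes among them. In bulk RNA, fewer cells of a type and less RNA per cell cannot be told apart, and this holds for every difference below. Under 15 other settings of the test, 11 of the 21 genes always kept an adjusted p under 0.05: ADAM8, ADAMTS14, ADAMTSL4, COL1A2, COL6A1, LAMA5, MMP17 and TIMP3 lower, and ADAMTS3, ADAMTS20 and COL15A1 higher.

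**Figure D2:**
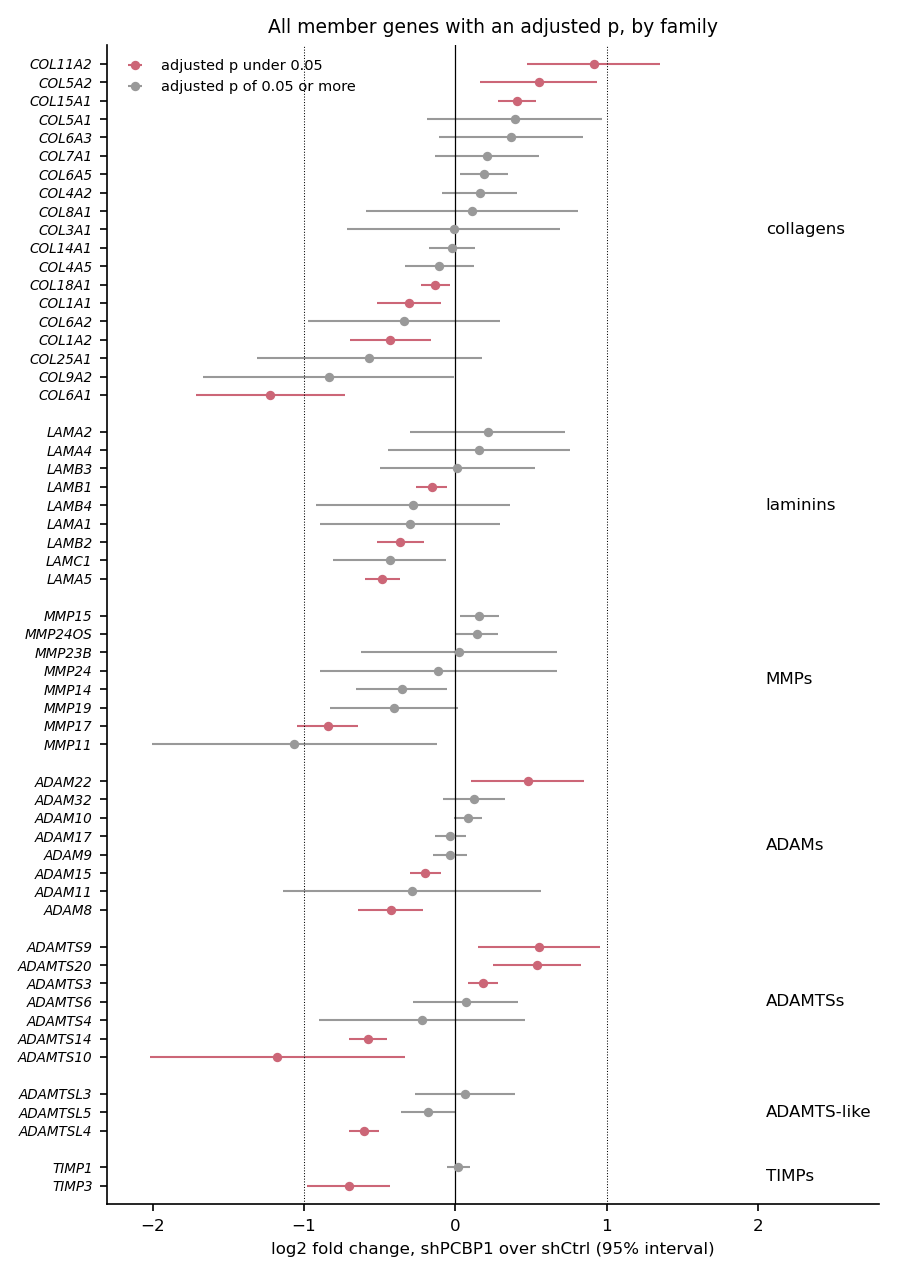
Log2 fold change of shPCBP1 over shCtrl with its 95% interval for the 56 genes with an adjusted p, grouped by family, with red for an adjusted p under 0.05 and dotted lines at -1 and 1. Of the 21 red genes 14 lie left of 0, and the point estimates of COL6A1, ADAMTS10 and the grey MMP11 lie beyond -1.

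**Figure D3:**
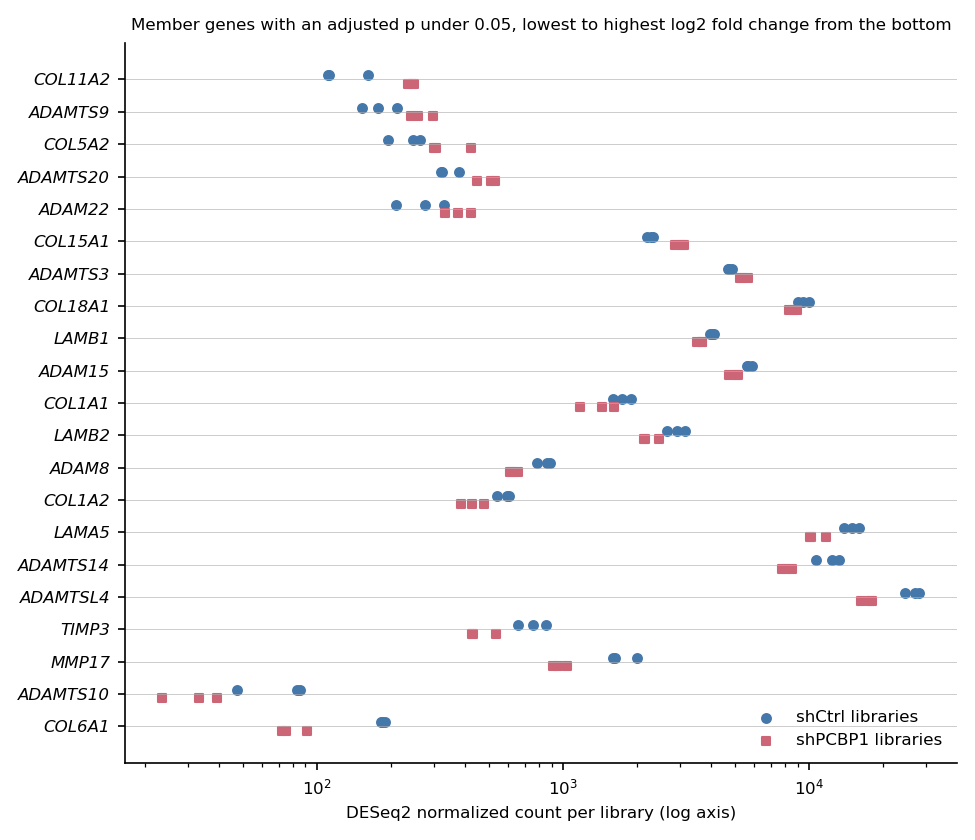
DESeq2 normalized count in each of the 6 libraries on a log axis for the 21 genes with an adjusted p under 0.05, ordered by log2 fold change, with circles for the 3 shCtrl and squares for the 3 shPCBP1 libraries. The groups are apart for every gene shown but COL1A1, and the levels run from ADAMTS10, the lowest, to ADAMTSL4, the highest.

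Of 12 laminin chains 9 were tested, 3 were lower (33.3%, against 31.2% of all genes and 37.0% of protein-coding genes passing in either direction), none was higher and 6 did not pass. Of the 9 log2 fold changes 6 lay below 0 and 3 above. LAMA5 codes for the alpha 5 chain, LAMB1 and LAMB2 for the beta 1 and beta 2 chains, and they are the only chains that averaged 1 TPM or more. Their genes lie on different chromosomes. The 150 bases just upstream of each gene's first GENCODE exon are shown to place the genes, because these are the laminin genes that passed, from the RefSeq promoter table on GRCh38.p14, minus strand, with GC boxes (GGGCGG or its reverse complement CCGCCC, overlaps included) in capitals.
LAMA5, chr20:62367313-62367462: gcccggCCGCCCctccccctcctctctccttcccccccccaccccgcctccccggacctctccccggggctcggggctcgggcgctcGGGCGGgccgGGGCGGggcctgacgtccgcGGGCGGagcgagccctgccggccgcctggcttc
LAMB1, chr7:108003214-108003363: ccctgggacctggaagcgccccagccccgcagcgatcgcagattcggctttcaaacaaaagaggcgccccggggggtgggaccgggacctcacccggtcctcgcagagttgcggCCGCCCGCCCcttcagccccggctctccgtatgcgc
LAMB2, chr3:49133119-49133268: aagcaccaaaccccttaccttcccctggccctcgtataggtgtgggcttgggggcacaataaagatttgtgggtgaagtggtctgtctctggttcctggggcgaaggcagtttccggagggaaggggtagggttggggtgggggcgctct
The windows hold 4, 2 and 0 GC boxes. Over the 250 bases before the RefSeq start, 46.2% of all genes in that table hold a box, as do 67.4% of the 86 members that matched it and 82.5% of the 40 of those with an adjusted p. All 5 higher and all 10 lower members that matched hold one. LAMB2 holds 1 box in its 250 bases, outside the window shown. No share was taken over all tested genes or all protein-coding genes, and a link between GC boxes and a change was not tested.

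LAMA5 (chr20:62307955-62367312, GRCh38, minus strand) had normalized counts of 14969, 15947 and 13862 (shCtrl) against 10101, 10214 and 11733 (shPCBP1). Every shPCBP1 library lay below every shCtrl library, and the level was 71.6% of shCtrl (log2 fold change -0.48, adjusted p 2.30e-14, SE 0.0594, Wald test in DESeq2, adjusted over all genes by Benjamini-Hochberg, as for the adjusted p-values that follow). On the TPM scale its coding transcripts had 13.5, 14.99 and 12.7 (shCtrl) against 8.49, 9.15 and 10.2 (shPCBP1), while 67.9% of its TPM lay in short retained-intron transcripts. LAMA5 overlaps ADRM1 and LAMA5-AS1 on the other strand, and whether the counting used strand was not given in the sources used here.

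LAMB2 (chr3:49121114-49133118) had normalized counts of 2919, 3141 and 2641 (shCtrl) against 2141, 2163 and 2452 (shPCBP1), again with no overlap, and fell by 0.36 on the log2 scale (adjusted p 3.99e-05, SE 0.0792). Its call was lost with transcript length offsets (log2 fold change -0.13, adjusted p 0.781), and 73.6% of its TPM lay in retained-intron transcripts. The coding transcripts of LAMB2 had 4.68, 5.24 and 4.196 (shCtrl) against 3.16, 3.34 and 3.54 (shPCBP1) TPM, a gap between the groups in the same direction as the counts. The TPM of the whole gene did not show this gap. It was 20.3, 24.7 and 19.3 (shCtrl) against 15.4, 16.7 and 26.0 (shPCBP1), with shPCBP1 replicate 3 the highest. LAMB1 (chr7:107923799-108003213) had normalized counts of 4038, 3949 and 4101 (shCtrl) against 3515, 3664 and 3672 (shPCBP1) and fell by 0.16 on the log2 scale (adjusted p 0.0137, SE 0.0533). This small change was the least secure of the laminins. It was lost under 4 of 15 other settings, among them the omission of shCtrl replicate 3 (adjusted p 0.0572) or shPCBP1 replicate 1 (0.0616) and a block on the replicate number (0.0591), and counts of coding transcripts alone gave a log2 fold change of 0.32 (adjusted p 0.524).

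LAMC1, the gamma 1 chain found in most laminins, had normalized counts of 306, 316 and 251 (shCtrl) against 195, 212 and 239 (shPCBP1) and missed the threshold (log2 fold change -0.43, 95% interval -0.81 to -0.06, adjusted p 0.0652), although its groups did not overlap. It passed under 5 of the other settings. LAMC1 was chosen after its values were seen. The other 5 tested chains, LAMA1, LAMA2, LAMA4, LAMB3 and LAMB4, averaged under 1 TPM. Summed over the 12 genes, laminin TPM was between 98.4 and 122 in shCtrl and between 65.7 and 84.6 in shPCBP1, most of it from LAMA5. Coding transcripts alone gave 22.8 to 28.1 in shCtrl against 18.5 to 21.3 in shPCBP1.

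The collagens went both ways. Of 44 chains 19 were tested, 3 were higher, 4 were lower and 12 did not pass, and the median log2 fold change was -0.01. The share that passed was 36.8%, against 31.2% of all genes and 37.0% of protein-coding genes tested. The chains of type I collagen and 1 chain of type VI were lower, and so was the basement membrane collagen COL18A1, while its close relative COL15A1 was higher, together with the minor fibrillar chains COL11A2 and COL5A2.

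COL6A1 (chr21:45981770-46005050, plus strand), the alpha 1 chain of the microfibrillar type VI collagen, had normalized counts of 184, 189 and 183 (shCtrl) against 91.1, 74.8 and 71.97 (shPCBP1). Both groups were tight and far apart, at 185 ± 3.22 in shCtrl and 79.3 ± 10.3 in shPCBP1 (SD, n = 3), and the shPCBP1 level was 42.8% of shCtrl (log2 fold change -1.22, adjusted p 1.28e-05, SE 0.251). Its level was low, with a mean of 0.527 TPM. COL6A2, a partner chain whose gene lies downstream on chromosome 21, had 87.2, 74.99 and 104 (shCtrl) against 78.7, 72.4 and 59.5 (shPCBP1) (log2 fold change -0.34, adjusted p 0.475), and COL6A3 had a log2 fold change of 0.37 (adjusted p 0.268). Both were named after their values were seen, and the differences between the 3 chains were not tested.

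Type I collagen, the main fibrillar collagen of bone and connective tissue, is built from COL1A1 and COL1A2. COL1A2 (chr7:94394895-94431227) had normalized counts of 607, 596 and 541 (shCtrl) against 478, 426 and 388 (shPCBP1) and fell by 0.43 on the log2 scale (adjusted p 0.00738, SE 0.136), with no overlap between the groups. COL1A1 (chr17:50184101-50201632) had 1597, 1744 and 1897 (shCtrl) against 1174, 1448 and 1622 (shPCBP1) and fell by 0.31 (adjusted p 0.0179, SE 0.108). The highest shPCBP1 library of COL1A1 lay above the lowest shCtrl library, and its call was lost without shCtrl replicate 2 or 3 or without shPCBP1 replicate 1 or 2, with adjusted p-values from 0.064 to 0.173. Markers of fibroblasts, the usual source of these chains, were scarce: PDGFRA had a summed count of 3, LUM 5, and FAP and PRRX1 none, and 4 of 8 markers reached a summed count of 10. These were THY1 with 719, TWIST1 with 403, PDGFRB with 111 and DCN with 62.00. THY1 (log2 fold change -0.59, adjusted p 0.121) and TWIST1 (-0.53, adjusted p 0.276) were tested and did not pass, and in both every shPCBP1 library lay below every shCtrl library. The summed level of the 8 was between 1.40 and 2.09 TPM in shCtrl and between 0.787 and 0.902 TPM in shPCBP1. The part of that difference in the collagen values was not tested.

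COL15A1 and COL18A1 code for the multiplexin collagens, whose C-terminal fragments include endostatin. COL15A1 (chr9:98943179-99070792) had normalized counts of 2282, 2197 and 2326 (shCtrl) against 2860.3, 3105 and 3054 (shPCBP1) and rose by 0.41 on the log2 scale (adjusted p 5.49e-09, SE 0.0639). COL18A1 (chr21:45405165-45513720), the most abundant collagen gene with a mean of 22.5 TPM, had 9486, 9035 and 9967 (shCtrl) against 8724, 8286 and 8987 (shPCBP1) and fell by 0.13 (adjusted p 0.0251, SE 0.0491). The ranges of COL18A1 lay close together, and the fall lost its call without shCtrl replicate 1 or 3 or without shPCBP1 replicate 1 or 2 (adjusted p 0.0568 to 0.189). Both genes overlap an annotated gene on the other strand, ENSG00000270412 for COL15A1 and SLC19A1 for COL18A1.

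COL11A2 (chr6:33162681-33192499), a chain of the cartilage collagen type XI, had normalized counts of 112, 111 and 161 (shCtrl) against 247, 245 and 234 (shPCBP1) and rose to 189% of the shCtrl level (log2 fold change 0.91, adjusted p 0.000385, SE 0.226). All shPCBP1 libraries lay within a narrow range above shCtrl, and the call was lost with length offsets (adjusted p 0.0957). COL5A2 (chr2:189031898-189225312), which regulates the width of type I fibrils as part of type V collagen, had 264, 246 and 195 (shCtrl) against 424, 304 and 300.3 (shPCBP1) and rose by 0.55 (adjusted p 0.0215, SE 0.198). This rise was lost under edgeR (adjusted p 0.0633), length offsets (0.317) and counts of coding transcripts (0.0514), and without shCtrl replicate 3 (0.132) or shPCBP1 replicate 1 (0.212). COL4A2 had normalized counts of 744, 886 and 714 (shCtrl) against 962, 915 and 738 (shPCBP1) with overlapping groups (log2 fold change 0.16, adjusted p 0.359), and its sign turned to -0.49 with counts of coding transcripts. Those transcripts were estimated near 0 TPM in shCtrl replicate 3 and in shPCBP1 replicates 1 and 2, so this value rests on few libraries.

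Of the 24 MMP genes, 8 were tested and 1 passed (12.5%, against 31.2% of all genes and 37.0% of protein-coding genes tested). MMP17 (chr12:131828393-131851783, plus strand) codes for a membrane-anchored MMP held by a lipid tail, and among the metallopeptidase genes with an adjusted p under 0.05 only ADAMTS10 had a larger change. Its normalized counts were 1629, 1993 and 1595 (shCtrl) against 908, 1039.9 and 954 (shPCBP1). The groups were far apart, and the shPCBP1 level was 55.6% of shCtrl (log2 fold change -0.84, adjusted p 9.23e-15, SE 0.102). The coding transcripts of MMP17 had 5.57, 7.51 and 5.82 (shCtrl) against 3.01, 3.11 and 3.25 (shPCBP1) TPM, so the gap was there in the coding forms as well. With length offsets the log2 fold change of MMP17 was -1.11, past the fold limit of 1.

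The other membrane-type MMPs that were tested, MMP14, MMP15 and MMP24, did not pass, and MMP16 and MMP25 received no adjusted p. MMP15 had normalized counts of 2729, 2472 and 2656 (shCtrl) against 3059, 2849 and 2858 (shPCBP1) (log2 fold change 0.16, interval 0.03 to 0.29, adjusted p 0.0522), and passed without shCtrl replicate 1 (adjusted p 0.046). MMP14, which activates MMP2 at the cell surface, was at -0.35 (adjusted p 0.0636). MMP14 passed under 4 other settings and was named after its values were seen. MMP24OS, the gene in this family that codes for no protease, had the highest level of it, 27.3 TPM, and normalized counts of 2049, 2027 and 2175 (shCtrl) against 2152, 2443 and 2299 (shPCBP1) (log2 fold change 0.14, adjusted p 0.132). It overlaps MMP24, which had a mean of 0.151 TPM. The secreted gelatinases MMP2 and MMP9 had summed counts of 31 and 39 over all libraries and received no adjusted p.

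Of 20 ADAM genes 8 were tested, 1 was higher, 2 were lower and 5 did not pass. The share that passed was 37.5%, against 31.2% of all genes and 37.0% of protein-coding genes tested. The broad sheddases did not pass. ADAM10, which releases the outer part of Notch and many other receptors, had 7341, 8020.2 and 7638 (shCtrl) against 8321, 8150.4 and 7865 (shPCBP1) (log2 fold change 0.08, interval -0.01 to 0.18, adjusted p 0.187). ADAM9 had 5529.9, 5985 and 5291 (shCtrl) against 5633, 5560.2 and 5212 (shPCBP1) (log2 fold change -0.03, interval -0.14 to 0.08, adjusted p 0.723). ADAM17, the TNF-releasing enzyme and named after its values were seen, had a log2 fold change of -0.03 (interval -0.13 to 0.07, adjusted p 0.699). These intervals come from the main fit and reach no farther than 0.18 on the log2 scale, but the estimates depended on the setting. ADAM10 passed with length offsets (log2 fold change 0.29, adjusted p 0.00842) and without shCtrl replicate 2 (adjusted p 0.0469), and turned to -0.07 with counts of coding transcripts, and ADAM9 changed sign with length offsets and without shCtrl replicate 2.

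ADAM8 (chr10:133262420-133276868), a protease of leukocytes, had normalized counts of 786, 891 and 861 (shCtrl) against 622, 655 and 608 (shPCBP1) and fell by 0.43 on the log2 scale (adjusted p 0.000709, SE 0.1102). All 3 shPCBP1 libraries lay below all shCtrl libraries. ADAM15 (chr1:155050566-155062775), which carries an integrin-binding motif, had 5885, 5678 and 5606 (shCtrl) against 4724, 5168 and 5086 (shPCBP1) and fell by 0.20 (adjusted p 0.00101, SE 0.0521). On the TPM scale the whole gene did not show this, with 46.6, 44.1 and 38.2 (shCtrl) against 41.2, 47.00 and 46.4 (shPCBP1), whereas its coding transcripts had 16.8, 16.7 and 15.97 (shCtrl) against 12.1, 14.4 and 13.6 (shPCBP1), and with length offsets the log2 fold change was 0.08 (adjusted p 0.538). ADAM15 overlaps DCST1 on the same strand. ADAM22 (chr7:87934143-88202889), a receptor without protease activity that is best known in neurons, had 209.6, 328 and 276 (shCtrl) against 377, 332 and 422 (shPCBP1) and rose by 0.48 (adjusted p 0.0398, SE 0.1903). The nearest libraries of the groups almost touched, and the rise of ADAM22 was lost under 10 of 15 other settings, among them the omission of shCtrl replicate 1 (adjusted p 0.218) or 3 (0.0923) and of shPCBP1 replicate 1 (0.113) or 3 (0.187).

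In the ADAMTS family, 5 of the 7 genes tested passed, 3 higher and 2 lower, out of 19 in all. This is 71.4% of a small set, against 31.2% of all genes and 37.0% of protein-coding genes tested. The calls of ADAMTS9 and ADAMTS10 were not stable, as given below. ADAMTS14 (chr10:70672506-70762441, plus strand) and ADAMTS3 (chr4:72280969-72569221, minus strand) are both procollagen N-propeptidases, which trim the amino end of fibrillar procollagens, and they moved in opposite directions. ADAMTS14 had normalized counts of 12363, 13260.5 and 10703 (shCtrl) against 8101, 7753 and 8522 (shPCBP1) and fell to 67.1% of shCtrl (log2 fold change -0.58, adjusted p 1.58e-17, SE 0.0638). ADAMTS3 had 4741, 4705 and 4849 (shCtrl) against 5643, 5239.7 and 5359 (shPCBP1) and rose to 114% (adjusted p 0.001503, SE 0.0502). In TPM, ADAMTS14 had 27.2, 30.1 and 23.5 (shCtrl) against 17.1, 16.9 and 18.6 (shPCBP1), and ADAMTS3 had 10.4, 9.99 and 10.7 (shCtrl) against 12.1, 11.4 and 11.5 (shPCBP1). ADAMTS14 thus lay above ADAMTS3 per length in every library, by more in shCtrl than in shPCBP1.

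ADAMTS20 (chr12:43353866-43552203) and ADAMTS9 (chr3:64515654-64688000) form a pair of related proteoglycan-cutting enzymes and were both higher. ADAMTS20 had normalized counts of 324, 319.5 and 379 (shCtrl) against 449, 513 and 530.1 (shPCBP1) and rose by 0.54 on the log2 scale (adjusted p 0.001598, SE 0.148). ADAMTS9 had 153, 178 and 212 (shCtrl) against 259, 297 and 242 (shPCBP1) and rose by 0.55 (adjusted p 0.0256, SE 0.205). Both had separate groups at low levels, with means of 1.19 and 0.389 TPM. The rise of ADAMTS9 was lost under 8 of 15 other settings, among them the omission of shCtrl replicate 1 (adjusted p 0.126) or 2 (0.0682) and of shPCBP1 replicate 1 (0.0612) or 2 (0.149), and it overlaps ADAMTS9-AS1 on the other strand.

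ADAMTS10 (chr19:8580240-8610735), an enzyme tied to fibrillin microfibrils, was the other member called. It had the lowest counts of the 21, 47.6, 85.9 and 83.4 (shCtrl) against 23.6, 39.2 and 33.2 (shPCBP1), and fell by 1.18 on the log2 scale (adjusted p 0.0237, SE 0.4304). DESeq2 gave it no adjusted p without shCtrl replicate 1, 2 or 3 or without shPCBP1 replicate 1, where its log2 fold change was between -1.40 and -0.99, and with length offsets the adjusted p was 0.0964. Almost none of its TPM came from coding transcripts, which averaged 0.0345 TPM of 0.746. On the TPM scale the groups overlapped for the whole gene, with 0.568, 1.21 and 1.33 (shCtrl) against 0.334, 0.215 and 0.814 (shPCBP1).

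ADAMTSL4 (chr1:150549369-150560937, plus strand) codes for a fibrillin-binding protein without protease activity that is known from the fibers that hold the lens of the eye, and it had the lowest adjusted p of all members. Its normalized counts were 26906, 28068 and 24508 (shCtrl) against 17759, 16357 and 18079 (shPCBP1), so all shPCBP1 libraries lay well below shCtrl, at 65.7% of its level (log2 fold change -0.61, adjusted p 1.17e-30, SE 0.0507). In TPM the gene had 118, 127 and 106 (shCtrl) against 77.9, 72.3 and 79.3 (shPCBP1), and its coding transcripts had 56.2, 61.8 and 52.1 (shCtrl) against 37.2, 35.9 and 40.2 (shPCBP1). The gene overlaps ADAMTSL4-AS1, ADAMTSL4-AS2 and MCL1 on the other strand.

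One transcript of ADAMTSL4 went against the gene. The files give an estimate per transcript, and shares of a gene's TPM were tested for 121 transcripts of 30 member genes. Of these 1 was called, with an adjusted p under 0.05 and a difference over 5 percentage points, where 0.693% of all 38661 transcripts tested were called. A single call among 121 is close to that general rate, so it is a result about this transcript and not about the members. It was ADAMTSL4-204, whose share of the gene's TPM was 4.19, 5.95 and 5.21 (shCtrl) against 13.2, 12.6 and 12.3 (shPCBP1) percent, a difference of 7.59 points (limma, adjusted p 0.0213). In TPM, ADAMTSL4-204 had 4.93, 7.57 and 5.51 (shCtrl) against 10.3, 9.13 and 9.77 (shPCBP1), and the main coding form ADAMTSL4-201 had 33.4, 29.7 and 30.7 (shCtrl) against 14.5, 18.4 and 17.9 (shPCBP1). The abundance of ADAMTSL4-204 was thus higher in every shPCBP1 library than in any shCtrl library while that of ADAMTSL4-201 was lower.

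The 2 forms share 14 exons. ADAMTSL4-201 has 19 exons, and ADAMTSL4-204 ends in its exon 15 (chr1:150558473-150558748, hg38), which runs 99 bases past the splice donor that ADAMTSL4-201 uses, into an intron of 312 bases. The first 75 of these bases are coding in ADAMTSL4-204, the stop codon included. The sequence across this point is shown because it is what sets ADAMTSL4-204 apart, from the hg38 reference, plus strand, with 30 bases before the donor and with the GT of the donor and the TAG stop codon in capitals.
ADAMTSL4-204, chr1:150558620-150558724: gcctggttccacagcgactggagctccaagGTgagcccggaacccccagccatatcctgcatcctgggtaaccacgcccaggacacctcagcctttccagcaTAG
Salmon's split of reads between such overlapping forms is an estimate, and reads across the junction were not analysed here. The call was lost without shCtrl replicate 3 or any 1 shPCBP1 library, with adjusted p-values from 0.0678 to 0.0887, and in a fit that blocks on the replicate number (0.157).

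**Figure D4:**
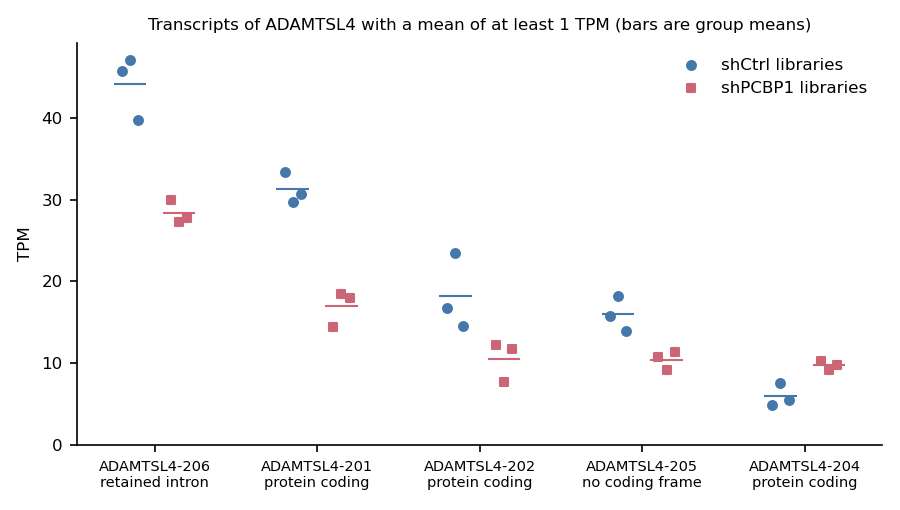
TPM of the 5 ADAMTSL4 transcripts with a mean of at least 1 TPM, with circles for the 3 shCtrl and squares for the 3 shPCBP1 libraries and lines for group means. In 4 of the 5 transcripts every shPCBP1 library lies below shCtrl, and in ADAMTSL4-204 every one lies above.

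The largest share of ADAMTSL4 TPM belonged to ADAMTSL4-206, a short form annotated with a retained intron, whose share was 38.8, 37.1 and 37.6 (shCtrl) against 38.4, 37.7 and 35.01 (shPCBP1) percent and did not pass (adjusted p 0.887). In TIMP1 the main form TIMP1-201 held 94.8, 96.2 and 95.2 (shCtrl) against 93.99, 92.5 and 93.7 (shPCBP1) percent (adjusted p 0.201). In LAMA5 the largest shares belonged to the full-length coding form LAMA5-201, with 18.5, 18.8 and 21.1 (shCtrl) against 23.4, 26.1 and 22.3 (shPCBP1) percent (adjusted p 0.337), and to the retained-intron form LAMA5-212, with 19.3, 22.1 and 18.04 (shCtrl) against 15.7, 15.3 and 19.3 (shPCBP1) percent (adjusted p 0.531). At an unadjusted p under 0.05, 12 of the 121 member transcripts passed (9.92%, against 13.7% of all transcripts tested). In simulated data this test recovered 90 of 200 transcripts changed by 3 on its log2 scale, so smaller shifts could have gone unseen.

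The other ADAMTS-like genes changed less. ADAMTSL5 had normalized counts of 1227, 1104 and 1192 (shCtrl) against 1015, 1034 and 1063 (shPCBP1) with separate groups (log2 fold change -0.18, adjusted p 0.118). ADAMTSL3 had 329, 390.1 and 316 (shCtrl) against 341, 323 and 418 (shPCBP1) (log2 fold change 0.06, adjusted p 0.826), and its sign turned without shPCBP1 replicate 3. Nearly all of the TPM of ADAMTSL3, 99.9%, lay in retained-intron transcripts.

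Of the inhibitors, TIMP3 was lower and TIMP1 did not pass. TIMP3 (chr22:32801705-32863041, plus strand), the inhibitor that stays bound to the matrix and also blocks ADAM and ADAMTS enzymes, had normalized counts of 759.8, 659 and 852 (shCtrl) against 428, 537 and 430.4 (shPCBP1). Every shPCBP1 library lay below every shCtrl library, at 61.5% of its level (log2 fold change -0.70, adjusted p 6.44e-06, SE 0.141). TIMP1 (chrX:47582408-47586789), a soluble inhibitor also known for an effect on erythroid cell growth, had 17035, 16307 and 16306 (shCtrl) against 16973, 17112 and 16260.1 (shPCBP1) (log2 fold change 0.02, interval -0.05 to 0.10, adjusted p 0.753). TIMP4 had 2.198, 5.43 and 12.5 (shCtrl) against 19.1, 22.6 and 17.99 (shPCBP1) and received no adjusted p, and it overlaps SYN2 on the other strand. TIMP2 had a summed count of 36.

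Genes that work with the matrix were read from 4 further lists: 26 integrins, 31 genes of collagen maturation, 19 regulators of these proteases and 60 glycoproteins and proteoglycans. Of 84 genes tested in these lists 31 passed, 13 higher and 18 lower (36.9%, against 31.2% of all genes and 37.0% of protein-coding genes tested). By the adjusted p, fold and count limits, 3 of the 84 were called (3.57%, where 1.37% of all genes tested were called). They were ITGA2B and FKBP10, both lower, and THBS1, higher. The share that passed was 26.7% of the integrins, 52% of collagen maturation, 18.8% of the protease regulators and 39.3% of the glycoproteins and proteoglycans.

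**Figure D5:**
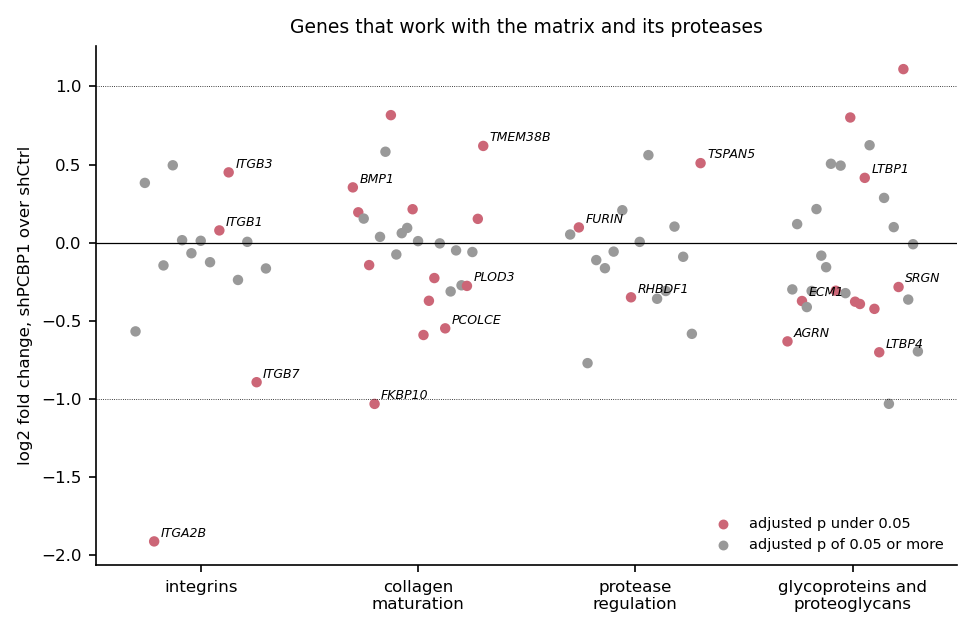
Log2 fold change of shPCBP1 over shCtrl for the 84 tested genes of the 4 lists, in a column per list, with red for an adjusted p under 0.05 and up to 5 of the red genes with the lowest adjusted p named per list. ITGA2B at -1.91 lies farthest below 0 and THBS1, the unnamed red point at 1.11, farthest above.

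Of the integrins, the receptors of the matrix, 15 were tested, 2 were higher and 2 lower. ITGA2B, the alpha chain of the platelet fibrinogen receptor, had normalized counts of 2027, 2669 and 2416 (shCtrl) against 456, 603 and 832 (shPCBP1) and fell by 1.91 on the log2 scale (adjusted p 9.05e-11, SE 0.274). ITGB3, its beta chain, had 979.7, 1136 and 1012 (shCtrl) against 1525, 1396 and 1342 (shPCBP1) and rose by 0.45 (adjusted p 1.84e-05, SE 0.0941). The pair thus moved in opposite directions, each with separate groups. Of 5 megakaryocyte markers, ITGA2B among them, PF4, PPBP and GP9 had summed counts of 7, 6 and 0, while GP1BA had 660.1 and did not pass (log2 fold change -0.18, adjusted p 0.682). The summed level of the 5 was between 13.7 and 17.6 TPM in shCtrl and between 3.77 and 5.58 TPM in shPCBP1, most of it from ITGA2B. ITGB7, which passed at -0.89 (adjusted p 0.0452), lost its call without any 1 shCtrl library or without shPCBP1 replicate 2 or 3 (adjusted p 0.0604 to 0.193) and under edgeR (0.057). ITGB1, the common beta chain of laminin and collagen receptors and the most abundant integrin at 99.03 TPM, passed at 0.08 (adjusted p 0.0461) and lost its call without shCtrl replicate 2 or 3 or shPCBP1 replicate 1 or 2 (adjusted p 0.0563 to 0.182) and under edgeR (0.224).

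Of 25 genes of collagen maturation tested, 6 were higher, 7 were lower and 12 did not pass. TMEM38B, an ion channel of the endoplasmic reticulum needed for collagen folding, had normalized counts of 4721, 4474 and 4914 (shCtrl) against 7298, 7182 and 7210.4 (shPCBP1) and rose by 0.62 on the log2 scale (adjusted p 1.42e-33, SE 0.0494). FKBP10, a chaperone of type I procollagen, had 701, 694 and 571 (shCtrl) against 291, 309 and 363 (shPCBP1) and fell by 1.03 (adjusted p 1.00e-10, SE 0.148). PCOLCE, which enhances cleavage of the carboxyl end of procollagen, had 1753, 1899 and 1738 (shCtrl) against 1293, 1204 and 1183 (shPCBP1) and fell by 0.55 (adjusted p 5.40e-10, SE 0.0817). The groups were apart for all 3 of these genes. PPIB, a proline isomerase for collagen and the most abundant of the list at 242 TPM, did not pass (log2 fold change -0.06, adjusted p 0.319).

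Of 16 regulators of the proteases tested, 2 were higher and 1 was lower. TSPAN5, a tetraspanin that guides ADAM10 to the cell surface, had normalized counts of 2757, 2745 and 2781 (shCtrl) against 3834, 4138 and 3816 (shPCBP1) and rose by 0.51 on the log2 scale (adjusted p 1.32e-16, SE 0.0581). RHBDF1, a rhomboid-like partner of ADAM17, had 1505, 1406 and 1506 (shCtrl) against 1009, 1142 and 1323 (shPCBP1) and fell by 0.35 (adjusted p 0.00286, SE 0.101). Their sheddases ADAM10 and ADAM17 did not pass, as given above. FURIN, the convertase that activates many of these enzymes, passed at 0.10 (adjusted p 0.0407), a small rise that was lost without any 1 library other than shPCBP1 replicate 1 (adjusted p 0.0586 to 0.178) and under edgeR (0.163). BSG, an inducer of MMPs, had 414 TPM and did not pass (log2 fold change 0.05, adjusted p 0.261).

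Of 28 glycoproteins and proteoglycans tested, 3 were higher and 8 lower. AGRN, the heparan sulfate proteoglycan agrin that binds laminins, had normalized counts of 16125, 16918 and 16398 (shCtrl) against 10806, 10497 and 10599.7 (shPCBP1) and fell by 0.63 on the log2 scale (adjusted p 1.81e-59, SE 0.0379). It lost its call with length offsets (log2 fold change -0.35, adjusted p 0.135). LTBP4 and LTBP1 both code for proteins that anchor latent TGF-beta in the matrix, and they moved in opposite directions. LTBP4 had 10561, 11332 and 9973 (shCtrl) against 6249, 6543 and 6799 (shPCBP1) and fell by 0.70 (adjusted p 4.11e-37, SE 0.0532), while LTBP1 had 7349, 7309 and 7510.4 (shCtrl) against 10294, 9735 and 9523 (shPCBP1) and rose by 0.41 (adjusted p 7.25e-19, SE 0.0443). SRGN, the granule proteoglycan of blood cells and the most abundant gene of the list at 187 TPM, fell by 0.28 (adjusted p 2.03e-11, SE 0.0393). THBS1, thrombospondin 1, named after its values were seen, was the list's only gene called, past the adjusted p, fold and count limits. This is 1 of the 28 tested (3.57%, where 1.37% of all genes tested were called). THBS1 had 255, 225 and 406 (shCtrl) against 706, 673 and 543 (shPCBP1) (log2 fold change 1.11, adjusted p 1.97e-07, SE 0.195). Summed over the list, the level was between 457 and 488 TPM in shCtrl and between 368 and 382 TPM in shPCBP1. Much of this gap lay in SRGN, with 200, 205 and 207 (shCtrl) against 165, 176 and 170 (shPCBP1) TPM, and in LTBP4. LTBP4 had 75.9, 89.0 and 70.7 (shCtrl) against 42.3, 49.9 and 50.5 (shPCBP1) TPM. Of the 28 genes tested 17 did not pass, and 10 had a log2 fold change above 0.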

How the data were processed

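Estimated counts and TPM per transcript were deposited for 6 libraries. The authors made them with Salmon 1.10.2 on the hg38 build, per the labels' processing notes. The annotation release behind the index and the strand setting were not given in the sources used here. The deposited estimated counts are raw and can hold fractions. For the deposited TPM values, Salmon divided by effective transcript length and scaled each library to the same total. Short retained-intron transcripts can therefore hold much of a gene's TPM.

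Transcripts (252045 per library) were matched to GENCODE release 44 by ID, and 251612 were found. The rest held 0.136% to 0.147% of the counts and were left out. Counts were summed per gene and rounded, and genes that summed to 10 or more over the libraries were fitted in DESeq2 1.42.0 (two-sided Wald test, default size factors, no term but the group, independent filtering at 0.05). Adjusted p-values that DESeq2 left missing stayed missing. Changed means an adjusted p under 0.05, and called adds that the absolute log2 fold change exceeds 1 and the mean normalized count exceeds 10. Transcript shares were tested in limma 3.58.1 on the log2 ratio of a transcript's TPM to the rest of its gene, with a pseudocount of 0.1 TPM, in genes of at least 1 TPM. Sequences came from the RefSeq promoter table and the hg38 reference.

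The members, the lists (integrins, collagen maturation, protease regulation, glycoproteins and proteoglycans, and markers of erythroid, megakaryocyte, fibroblast and endothelial cells) and the rules were chosen with earlier results of these data known. Endothelial markers were scarce, with summed levels between 0.863 and 1.20 TPM in shCtrl and between 0.728 and 1.55 TPM in shPCBP1, and 1 of 5 tested without passing. Genes named were all members that passed, the 3 most abundant of each family, the 3 lowest adjusted p-values and the most abundant gene of each pathway list, called transcripts and the main transcripts of the 3 most abundant multi-transcript members. Others are said to have been picked after their values were seen.

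Libraries of one group differed by more than sampling noise (chi-square per degree of freedom 6.9 to 18.3), and each was counted as a sample. Tested on simulated data over 28766 genes, DESeq2 recovered 191 of 200 genes changed 3-fold in this comparison, with 17 false calls. The changed genes were drawn only from those with higher mean counts. All members that passed changed by less than 3-fold, and recovery of such smaller changes was not simulated. The share test recovered 90 of 200 with 3 false calls over 38661 transcripts. Alternatives covered edgeR 4.0.16, TMM factors, transcript length offsets, filters, protein-coding genes only, a replicate block, other pseudocounts and leaving out each library. R 4.3.3 and Python 3.11.15 were used.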

Additional observations from a re-analysis of the deposited data

How the results depend on the processing

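The count of members with an adjusted p under 0.05 stayed within 1.5 times 21 under the 15 settings that test for any change, from 14 to 23 without 1 library and from 16 to 23 under the others. Without shPCBP1 replicate 1 it was 14. The genes were not always the same: with length offsets 19 passed, of which 14 were among the 21. Of the 2 members called, 1 was left with the replicate block and 1 with counts of coding transcripts, a setting chosen after seeing the data, where ADAMTS10 received no adjusted p. With length offsets 3 were called. When tested against an absolute log2 fold change of 1, DESeq2 called 0 members, and 0 had an unadjusted p under 0.05. Without 1 library, 1 to 2 were called. For transcript shares, 2 were called with a pseudocount of 1 TPM (MMP17-203 added), 0 with the replicate block (limma, adjusted p of ADAMTSL4-204 0.157, 8 member transcripts at an unadjusted p under 0.05) and 0 to 2 without 1 library (8 to 13 at an unadjusted p under 0.05). The pathway lists gave 27 to 32 genes, and PCBP1 a log2 fold change of -2.50 to -2.42.

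Among 46 named genes, 366 of 409 values under other settings kept their direction and side of the threshold, 35 lost it, 1 gained it and 7 changed sign. Without 1 library 234 of 272 kept it, 34 lost it, 2 gained it and 2 changed sign. ADAMTS10 under 6 settings and ITGB7 under 1 had no adjusted p and are not counted. With length offsets, ADAM15 changed to 0.0824 and ADAM9 to 0.00491. With protein-coding genes only TIMP1 was at -0.00195. With counts of coding transcripts LAMB1 was at 0.32, COL4A2 at -0.49, ADAM10 at -0.0706 and TIMP1 at -0.0112. Without 1 library ADAM9 lay between -0.0717 and 0.0168 (shCtrl replicate 2 left out) and ADAMTSL3 between -0.0534 (shPCBP1 replicate 3 left out) and 0.158. The cause was not tested.

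Libraries with the same replicate number in the labels showed no shared deviation (correlations 0.094, -0.0203 and -0.105). The labels do not say whether they were prepared together, and this check cannot decide it. With a replicate block, 17 members, 1 called member, 0 transcript shares and 27 list genes passed, and PCBP1 was at -2.47. Of the members that passed, LAMB1, ADAM22 (adjusted p 0.0845) and ADAMTS9 (0.0814) lost their call there and ADAMTS10 received no adjusted p. Depth limits what can be said of the 72 members without an adjusted p.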
